A study of Mus musculus with 31 samples.

Results

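The proteasome genes examined here were the 50 protein-coding mouse genes whose symbol is Psm followed by a letter from a to g and a digit, out of 22028 protein-coding genes in the GENCODE M21 annotation. All 50 were in both deposited tables, and 4 non-coding genes with matching symbols were left out. By role they were 8 genes of the 20S alpha ring, 4 structural and 3 constitutive catalytic genes of the 20S beta ring, 3 immunoproteasome catalytic genes (Psmb8, Psmb9 and Psmb10) and the thymoproteasome gene Psmb11. The others were 6 ATPases and 11 non-ATPases of the 19S cap, 3 assembly chaperones of the 19S cap, 4 assembly chaperones of the 20S core, 6 activator and inhibitor genes, and Psmc3ip. Psmc3ip matches the symbol pattern but encodes a meiotic recombination factor that is no part of the proteasome. The members were matched by symbol, but the set, and the contrast of the immunosubunits with the other subunits, was chosen by measured values of the 2 comparisons below (dorsal against ventral counts in bulk, null against wild-type TPM in Smart-seq2), known from earlier results of these data. All differences of the members are therefore descriptions. Adjusted p-values given for them are their rows in a fit across all genes and no independent support.

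Bulk RNA-seq compared dorsal with ventral diencephalon from wild-type embryos of the mouse, taken at E10.5 (embryonic day), using 3 libraries for each. Smart-seq2, which reads whole transcripts from minute amounts of RNA, compared 13 libraries labelled Axin2-null with 12 labelled Axin2 wild type, made from medial cortex at E11.5. All 25 came from Emx1-CreERT2::MADM-11::Axin2LacZ/+ embryos, so that the wild-type libraries share the Cre driver, the MADM-11 cassettes and a host heterozygous for the LacZ allele of Axin2. MADM (mosaic analysis with double markers) uses Cre to exchange parts of a chromosome pair, here chromosome 11, so that mutant and wild-type cells arise in the same embryo, and Emx1 drives the tamoxifen-dependent CreERT2 in cells of the dorsal telencephalon. Axin2 is a negative-feedback inhibitor of Wnt signalling.

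The proteasome degrades proteins tagged with ubiquitin. Its 20S core stacks rings of alpha subunits, which gate the channel, on rings of beta subunits, of which Psmb5, Psmb6 and Psmb7 carry the chymotrypsin-like, caspase-like and trypsin-like active sites. The 19S cap binds, unfolds and feeds in the substrate. Immune cells, and other cells exposed to interferon gamma, replace the constitutive catalytic subunits with Psmb8, Psmb9 and Psmb10 in that order, which changes the peptides available to MHC class I. When proteasome activity is low, the transcription factor Nfe2l1 raises transcription of the constitutive subunits through antioxidant response elements.

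Promoter sequences are shown for the immunosubunits and for the counterparts that had an entry, because the 2 sets are transcribed under different control in immune tissue and the comparisons below set them against each other. Each is the 250 bases before the RefSeq start site, 5' to 3' on the gene's strand, from RefSeq sequence of build GRCm38.p6. Capitals mark letters of 3 motifs searched on both strands, GAAA followed after 2 bases by GAAA (interferon regulatory factor type), TGACNNNGC (antioxidant response element core) and CCAAT. The windows were chr17:34197945-34198194 on the plus strand for Psmb8, chr17:34187331-34187580 on the minus strand for Psmb9, chr8:105938393-105938642 on the minus strand for Psmb10, chr14:54617996-54618245 on the minus strand for Psmb5 and chr11:70525107-70525356 on the plus strand for Psmb6.
Psmb8: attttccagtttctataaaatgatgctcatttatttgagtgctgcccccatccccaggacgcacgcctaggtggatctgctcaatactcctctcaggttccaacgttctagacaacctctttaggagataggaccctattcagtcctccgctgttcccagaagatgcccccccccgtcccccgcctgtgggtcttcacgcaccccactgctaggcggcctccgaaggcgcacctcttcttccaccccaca
Psmb9: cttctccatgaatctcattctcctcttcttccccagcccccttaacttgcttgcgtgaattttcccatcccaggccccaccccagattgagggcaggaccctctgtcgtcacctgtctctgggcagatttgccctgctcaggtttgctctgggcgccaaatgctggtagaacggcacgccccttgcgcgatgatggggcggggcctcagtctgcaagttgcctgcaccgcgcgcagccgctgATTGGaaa
Psmb10: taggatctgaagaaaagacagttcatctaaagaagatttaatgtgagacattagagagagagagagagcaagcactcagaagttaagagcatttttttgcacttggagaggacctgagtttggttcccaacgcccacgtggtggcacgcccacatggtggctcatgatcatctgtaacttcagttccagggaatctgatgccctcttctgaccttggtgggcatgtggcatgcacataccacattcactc
Psmb5: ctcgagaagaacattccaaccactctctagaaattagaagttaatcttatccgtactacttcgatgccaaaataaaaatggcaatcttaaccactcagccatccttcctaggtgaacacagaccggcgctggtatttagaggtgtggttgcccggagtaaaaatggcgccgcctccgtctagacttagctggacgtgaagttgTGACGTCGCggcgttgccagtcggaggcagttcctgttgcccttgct
Psmb6: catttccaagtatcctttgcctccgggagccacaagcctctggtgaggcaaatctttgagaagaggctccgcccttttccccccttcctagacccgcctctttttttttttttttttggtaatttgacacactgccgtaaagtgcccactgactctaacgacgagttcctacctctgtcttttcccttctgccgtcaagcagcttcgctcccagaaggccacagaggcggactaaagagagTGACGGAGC

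Psmb5 held the antioxidant response element letters starting 47 bases before its start site and Psmb6 held them starting 9 bases before its own. Psmb9 held CCAAT on the opposite strand, read as ATTGG, 8 bases before its start, while Psmb8 and Psmb10 held none of the 3 motifs. No match says only that these letters are absent from this window. The windows of Psmb8 and Psmb9 lie inside the genes as annotated in GENCODE, so sequence before their annotated 5' ends was not searched. Over windows of 300 bases that include 50 bases after the start, 42 of the 50 members had an entry, with 45 windows in all, beside 32851 windows of 27025 genes in the table. The interferon-type letters stood in 5 member windows (11.1%, against 3.44% of all windows), those of Psmb3, Psmd4, Psmd9, Psme1 and Psmg4 and of no immunosubunit. The antioxidant core stood in 6 (13.3%, against 12.4%), those of Psmb5, Psmb6, Psmc6, Psmd9, Psmd12 and Psme4, and CCAAT in 15 (33.3%, against 37.4%). Member windows had a median GC content of 57.3% and 19 CpG dinucleotides, against 52.7% and 7 for all windows. Psmb10 had the lowest GC content of the members at 45.7%, with 3 CpG, beside 55.3% and 11 for Psmb8 and 62.0% and 17 for Psmb9. No entry was used for Psma8, Psmb1, Psmb2, Psmb7, Psmc3, Psmd3, Psmd7 and Psmg2.

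The bulk libraries held between 17604166 and 20838002 counts. Whether libraries of a region stem from different embryos is not stated in the labels, so that p-values reflect the spread among these libraries, possibly technical. The regional labels matched their markers, since 4 of 4 ventral diencephalon markers were called higher in ventral and 5 of 5 dorsal diencephalon markers higher in dorsal, but the dorsal libraries also held 911 to 1013 CPM (counts per 1000000) of 4 cortex markers, against 34.8 to 49.4 in ventral. The ventral libraries held transcripts of other organs, with 12 small-intestine markers summing to 5151, 9130 and 2535 CPM in ventral libraries 1, 2 and 3, against 11.6 to 16.1 CPM in dorsal. In the Smart-seq2 libraries, 4 cortex markers summed to between 249 and 580 TPM (transcripts per 1000000) and 7 neural progenitor markers to between 969 and 3168 TPM. Axin2 was at 6.17 ± 6.996 TPM (range 0 to 22.4, n = 13) in libraries labelled null and 13.8 ± 8.79 TPM (range 4.32 to 35.9, n = 12) in those labelled wild type. These ranges overlapped, and 3 null libraries exceeded the mean of the wild-type libraries, so genotypes are given as labelled throughout. In 5 Smart-seq2 libraries, 2 null and 3 wild type, the 10 highest genes took 27.1% to 40.7% of the TPM, against 7.80% to 19.5% in the other 20, and the main Smart-seq2 values are given with and without these 5.

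In the diencephalon, the immunosubunits Psmb8 and Psmb9 were higher in ventral than in dorsal libraries, whereas no constitutive subunit of the 20S core or 19S cap was called in either direction. Psmb9, the counterpart of Psmb6, had 0, 3 and 0 counts in the dorsal libraries and 64, 126 and 10 in the ventral ones. Psmb8, the counterpart of Psmb5, had 2, 10 and 5 counts in dorsal and 58, 116 and 18 in ventral. For both genes every ventral library lay above every dorsal one, and ventral library 2 was highest and ventral library 3 lowest within the region. Psmb9 (ENSMUSG00000096727, chromosome 17, 34181987 to 34187764, minus strand, GRCm38) was at 0.0481 ± 0.0834 CPM in dorsal against 3.52 ± 3.15 CPM in ventral (SD, n = 3 each). With 3 dorsal counts in all, the ventral to dorsal ratio was 70.2 with an exact 95% counting interval from 23.7 to 343, and the adjusted p was 0.0251 (edgeR quasi-likelihood test, Benjamini-Hochberg). Psmb8 (ENSMUSG00000024338, chromosome 17, 34197721 to 34201454, plus strand) stood at 0.286 ± 0.194 CPM in dorsal against 3.39 ± 2.68 CPM in ventral. That was 11.8-fold higher in ventral, with a log2 fold change, dorsal over ventral, of -3.54 (SE 0.95, adjusted p = 0.0393, edgeR). These 2 were the only members called higher in ventral among 48 tested, where 9.54% of all 14701 tested genes were called in that direction.

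Psmb10, the counterpart of Psmb7, was not called, and its value depended on dorsal library 3. It was at 8.47, 9.53 and 22.9 CPM in dorsal libraries 1, 2 and 3 and at 17.1, 15.2 and 18.5 CPM in the ventral ones. Dorsal library 3 was the highest of the 6, and the regions overlapped. The means were 13.6 ± 8.06 CPM in dorsal against 16.9 ± 1.65 CPM in ventral, with a log2 fold change of -0.31 (SE 0.41, adjusted p = 0.653, edgeR), and without dorsal library 3 it was -0.91 (adjusted p = 0.0530). Psmb10 (ENSMUSG00000031897) lies on chromosome 8, 105935735 to 105938444, minus strand. The thymoproteasome gene Psmb11, known from thymic cortical epithelium, was low in every library with 30, 31 and 32 counts in dorsal and 35, 23 and 17 in ventral, and it was not called (adjusted p = 0.806, edgeR).

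**Figure D1:**
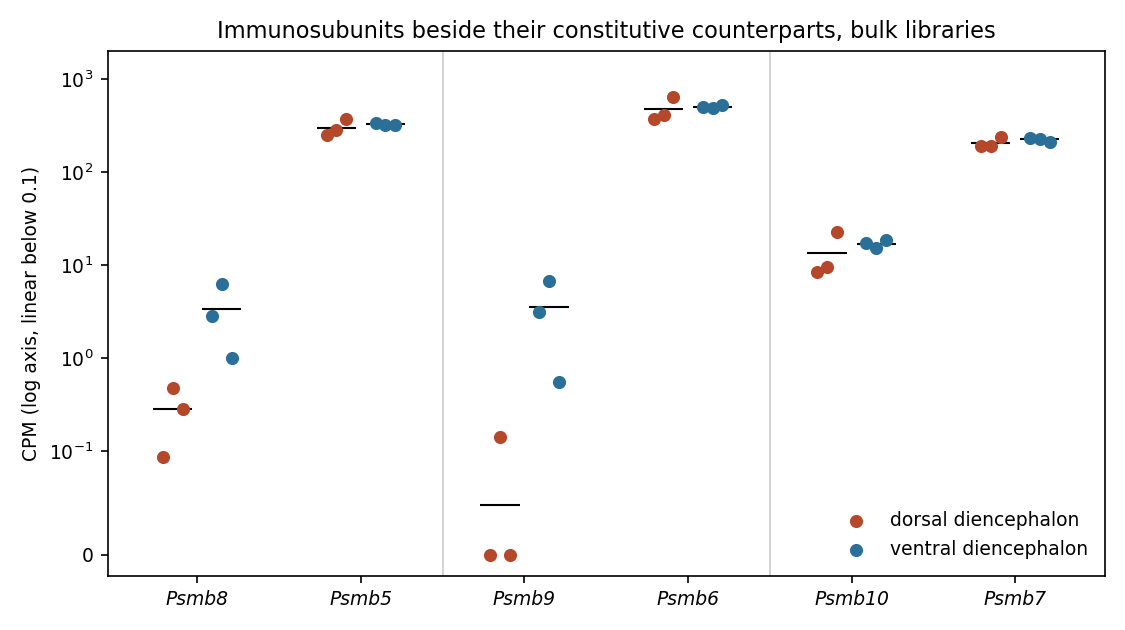
CPM on a log axis (linear below 0.1) of each immunosubunit beside its constitutive counterpart in the 3 dorsal and 3 ventral libraries, each point 1 library and each bar the mean. Psmb8 and Psmb9 separate by region at levels below 10 CPM, while Psmb10 overlaps between regions and Psmb5, Psmb6 and Psmb7 sit between 190 and 645 CPM in every library.

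The Psmb8 and Psmb9 calls were sensitive to single libraries. Psmb8 was no longer called without dorsal library 1, 2 or 3 (adjusted p = 0.140, 0.0831 and 0.0866, edgeR) or without ventral library 1 (0.0926). Psmb9 was no longer called without dorsal library 1 (adjusted p = 0.0927), dorsal library 3 (0.0666) or ventral library 1 (0.0658). Without ventral library 2, both genes fell below the minimum of 1 CPM and were not tested. The fitted direction was the same in every setting that tested them. In the annotation Psmb9 overlaps Tap1 on the opposite strand and Psmb8 overlaps the antisense gene Gm20496. Whether counting used strand is not given in the sources used here, so reads of these partners cannot be told apart. Tap1 itself was at 0.759 ± 0.329 CPM in dorsal against 1.66 ± 1.24 CPM in ventral and was not called (adjusted p = 0.383, edgeR).

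Transcripts of other organs and of immune cells moved with these 2 genes. The order over ventral libraries, highest in 2, then 1, then 3, was also that of the small-intestine markers. It was that of 10 exocrine pancreas markers, at 1740, 3282 and 712 CPM in ventral libraries 1, 2 and 3, against 2.97 to 4.54 CPM in dorsal. It was likewise that of 9 lymphocyte and plasma cell markers (497, 902 and 267 CPM, against 2.98 to 6.59) and of 12 macrophage markers (36.3, 66.0 and 14.6 CPM, against 3.67 to 10.3). Of the tested markers, 12 of 12 intestinal, 10 of 10 pancreatic, 2 of 3 lymphocyte and 3 of 6 macrophage genes were called higher in ventral. All listed intestinal, pancreatic and macrophage genes were above 0 in both regions, as were 8 of the 9 lymphocyte genes. Per 1000 CPM of intestinal markers, Psmb8 stood at 0.557, 0.689 and 0.396 CPM and Psmb9 at 0.614, 0.748 and 0.220 CPM in ventral libraries 1, 2 and 3, while Psmb10 ran the other way at 3.32, 1.67 and 7.30. The part of these cells in the Psmb8 and Psmb9 difference was not tested. In bulk tissue, fewer cells of a type and less RNA per cell cannot be told apart.

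Per kilobase of merged exon, the 3 immunosubunits together made up 0.95%, 0.989% and 1.64% of the level of Psmb5, Psmb6 and Psmb7 in dorsal libraries 1, 2 and 3 and 1.66%, 1.86% and 1.63% in the ventral libraries. Dorsal library 3 lay within the ventral range, so the regions overlapped, and the mean log2 ratio, dorsal minus ventral, was -0.57 and without dorsal library 3 -0.82. Most of this share was Psmb10, which reached 8.85%, 10.1% and 19.5% of Psmb7 per kilobase in dorsal and 14.8%, 13.4% and 17.5% in ventral. Psmb8 reached at most 0.0458% of Psmb5 in dorsal and between 0.0841% and 0.524% in ventral. Psmb9 reached at most 0.0182% of Psmb6 in dorsal and between 0.0546% and 0.723% in ventral. Merged exons of Psmb8 (3381 bases) and Psmb9 (3660 bases) include those of every annotated transcript, which lowers their values per kilobase.

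None of the constitutive 20S and 19S subunits was called between the regions with all libraries. All 31 tested genes of the 20S rings and 19S cap had log2 fold changes within 0.5 of 0, from -0.36 for Psmd12 to 0.18 for Psmd3, with a median of -0.12 and 26 of 31 below 0. Over all 48 tested members the median was -0.12 and 42 lay within 0.5 of 0, while the median over all genes tested was 0.01 and 52.5% lay within 0.5 of 0. Without dorsal library 3 the median of the members was -0.24 and that of all genes -0.01, and 29 of the 31 constitutive genes lay within 0.5 of 0. The other two were Psma7 at -0.52 (adjusted p = 0.0252, edgeR) and Psmd4 at -0.50 (adjusted p = 0.0424). No member was called higher in dorsal, where 7.14% of all tested genes were. At an unadjusted p under 0.05 (edgeR), 2 members were higher in dorsal (Psme4 and Psmc3ip) and 3 in ventral (Psmb8, Psmb9 and Psmf1), against 14.4% and 16.2% of all genes, and DESeq2 called these same 5 genes at an adjusted p under 0.05, against 24.2% of all genes in either direction. Regions did not overlap for 9 members, 2 higher in dorsal and 7 higher in ventral, against 39.0% of all genes tested.

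The constitutive catalytic subunits overlapped between regions. Psmb5 was at 246, 280 and 369 CPM in dorsal and 339, 319 and 317 CPM in ventral libraries, with a log2 fold change of -0.12 (adjusted p = 0.697, edgeR). Psmb6 was at 367, 406 and 645 CPM against 496, 483 and 522 CPM, with a log2 fold change of -0.08 (adjusted p = 0.838). Psmb7 was at 192, 190 and 237 CPM against 231, 229 and 212 CPM, with a log2 fold change of -0.12 (adjusted p = 0.660). In each of the 3 genes dorsal library 3 was the highest of the 6 libraries and dorsal libraries 1 and 2 the lowest, so the ventral libraries lay inside the dorsal range. Summed over the constitutive 20S and 19S subunits, dorsal library 3 held 10172 CPM, dorsal libraries 1 and 2 held 7977 and 8319 CPM, and the ventral libraries held 9268 to 9834 CPM.

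The count of members called higher in ventral changed with single libraries. It was 0 without dorsal library 1, ventral library 1 or ventral library 2, 1 without dorsal library 2 and 3 without ventral library 3. Without dorsal library 3, 6 members were called higher in ventral by edgeR, namely the alpha-ring genes Psma6 and Psma7, the beta-ring genes Psmb2 and Psmb6, the ubiquitin receptor Psmd4 and the activator subunit Psme2, and Psmb8 and Psmb9 were not among them. Psma6, the alpha-ring gene with the lowest log2 fold change, was at 274, 271 and 344 CPM in dorsal and 394, 374 and 353 CPM in ventral, and its log2 fold change went from -0.33 (adjusted p = 0.194) to -0.45 (adjusted p = 0.0237) without that library. Psmb2 went from -0.34 (adjusted p = 0.209) to -0.47 (adjusted p = 0.0238). Psmb6 went from -0.08 to -0.37 (adjusted p = 0.0439). Each of these shifts was toward a higher ventral level of constitutive subunits.

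The other rings and the cap held no called gene with all libraries. In the alpha ring Psma1, which had the log2 fold change nearest to 0, was at 336 ± 23.9 CPM in dorsal against 352 ± 8.61 CPM in ventral (-0.07, adjusted p = 0.785, edgeR). In the structural beta ring the highest was Psmb1 at 0.02 (adjusted p = 0.951). In the cap the ATPases ranged from -0.20 for Psmc1 to 0.07 for Psmc6, and these motor subunits summed to 1622 ± 215 CPM in dorsal against 1719 ± 79.2 CPM in ventral. The non-ATPases, which include the scaffold subunits and the deubiquitinase Psmd14, summed to 2689 ± 57.7 and 2926 ± 240 CPM. Psmd12 at their lower end was at 167 ± 7.61 CPM in dorsal against 215 ± 25.6 CPM in ventral (-0.36, adjusted p = 0.167), and its regions did not overlap. Psmd3 at their upper end was at 177 ± 6.94 and 157 ± 27.2 CPM (0.18, adjusted p = 0.532).

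The alpha-ring gene Psma8, known as a testis subunit that replaces Psma7 during meiosis, had 3, 4 and 6 counts in dorsal and 0, 0 and 0 in ventral and was below the level for testing. With a floor of 3 counts set for the ventral region, the dorsal to ventral ratio was 4.11. That ratio takes the 13 dorsal counts as exact, so it is no lower bound. In the fit without a filter Psma8 was not called (adjusted p = 0.157, edgeR). The assembly chaperones of the cap ranged from -0.27 for Psmd5 (adjusted p = 0.378, edgeR) to -0.23 for Psmd10 (adjusted p = 0.550). Those of the core ranged from -0.19 for Psmg3 (adjusted p = 0.616) to 0.50 for Psmg4 (adjusted p = 0.432). Psmg4 was at 22.3, 25.7 and 61.9 CPM in dorsal and 26, 22.5 and 29.0 CPM in ventral, so its higher dorsal mean rested on dorsal library 3.

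Activators and the inhibitor did not move as a group. Psme4 encodes the PA200 activator, which caps the core without ubiquitin or ATP, and it was at 117, 106 and 106 CPM in dorsal and 54.5, 53.7 and 94.3 CPM in ventral libraries. Its lowest dorsal library exceeded its highest ventral one, but ventral library 3 was close to them, and the log2 fold change of 0.70 (SE 0.25) had an adjusted p of 0.0959 (edgeR). Without ventral library 3 it was 0.99 with an adjusted p of 0.00417. Psmf1 encodes PI31, an inhibitor of the core in vitro. Its levels were 76.3, 79.2 and 60.4 CPM in dorsal and 99.3, 87.5 and 145 CPM in ventral (-0.62, adjusted p = 0.113, edgeR). Psmf1 did not overlap between regions, and ventral library 3 was its highest. Psme3, the nuclear PA28 gamma activator, was at 202 ± 55.1 and 150 ± 36.0 CPM (0.43, adjusted p = 0.326).

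Psme1 and Psme2 encode the interferon-inducible PA28 alpha and beta activator, and neither was called with all libraries. Psme1 was at 103, 105 and 185 CPM in dorsal and 174, 156 and 121 CPM in ventral, and Psme2 at 72.0, 80.3 and 143 CPM in dorsal and 130, 124 and 112 CPM in ventral. In both genes dorsal library 3 was the highest library, and the regions overlapped. Their log2 fold changes were -0.20 (adjusted p = 0.666, edgeR) and -0.31 (adjusted p = 0.484), and without dorsal library 3 they were -0.53 (adjusted p = 0.0825) and -0.67 (adjusted p = 0.0173). Psme2b is a near-identical copy of Psme2 with 1, 10 and 7 counts in dorsal and 10, 13 and 18 in ventral, so the split of reads between the pair is uncertain. Psmc3ip, the member outside the proteasome, was at 27.2, 30.4 and 36.0 CPM in dorsal and 19.4, 20.1 and 18.6 CPM in ventral, without overlap (0.69, SE 0.21, adjusted p = 0.0589, edgeR).

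**Figure D2:**
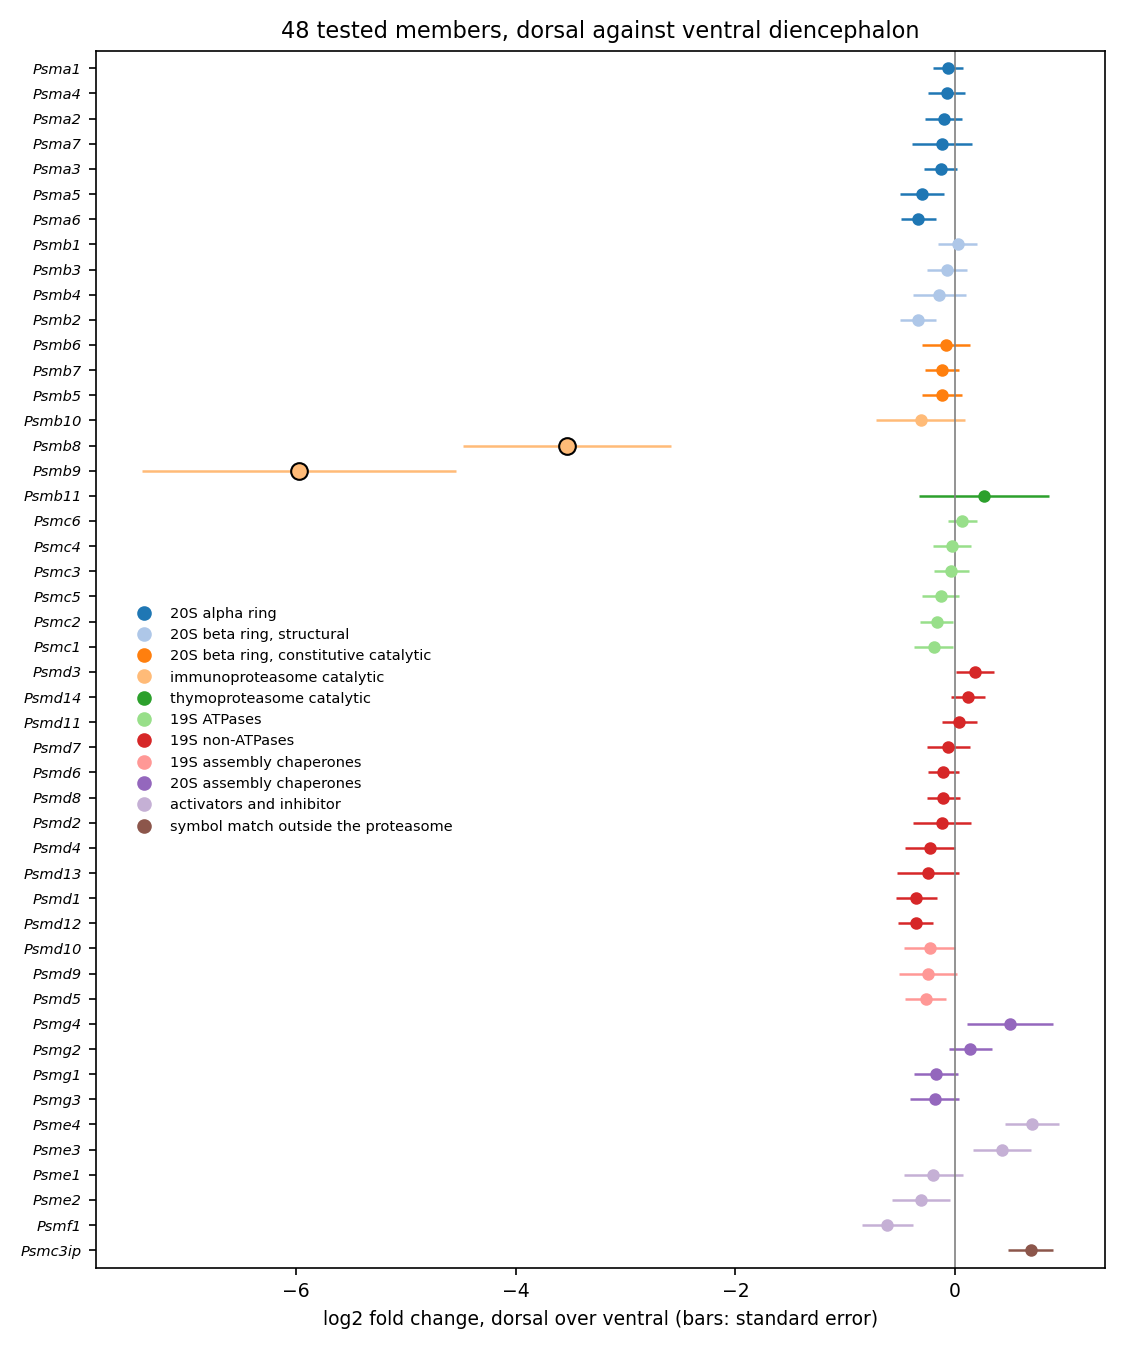
Log2 fold change, dorsal over ventral, with its standard error from the edgeR fit for the 48 tested members, ordered and coloured by role, with called genes outlined. Psmb8 and Psmb9 lie at -3.54 and -5.97, and all constitutive 20S and 19S subunits lie between -0.36 and 0.18.

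Other genes of the pathway were read from lists fixed with earlier results of these data known. Median log2 fold changes were -0.09 for proteasome-associated genes, -0.25 for the Nfe2l1 axis, -0.43 for MHC class I antigen processing, -1.29 for the interferon response, -0.11 for ubiquitin and its first enzymes and -0.18 for the CCT chaperonin, another large cytosolic complex, beside 0.01 for all genes tested. Of 18 tested proteasome-associated genes, 3 were called higher in dorsal and 0 in ventral (edgeR), beside 7.14% and 9.54% of all genes tested. These were the ubiquitin shuttle factors Rad23b (93.2 ± 3.57 against 58.1 ± 8.08 CPM, adjusted p = 0.0295) and Ubqln4 (99.2 ± 23 against 51.5 ± 6.32 CPM, adjusted p = 0.0227), and the proteasome scaffold Ecpas (56.6 ± 7.64 against 36.2 ± 1.88 CPM, adjusted p = 0.0485). Of 7 genes of the Nfe2l1 axis, Ddi2, the protease that activates Nfe2l1, was called higher in dorsal at 39.8 ± 4.27 against 19.8 ± 3.40 CPM (adjusted p = 0.0165). Nfe2l2, the oxidative stress factor, was called higher in ventral at 40.6 ± 10.8 against 8.93 ± 2.25 CPM (adjusted p = 0.00228). Nfe2l1 itself was at 79.3 ± 14.2 and 82.5 ± 6.05 CPM and was not called (adjusted p = 0.867).

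Counts for the remaining lists are read against the same 7.14% of all genes called higher in dorsal and 9.54% in ventral. Of 11 tested genes of MHC class I antigen processing, 0 were called higher in dorsal and 3 in ventral (edgeR). B2m, the class I light chain, was at 11.2 ± 1.47 CPM in dorsal against 400 ± 217 CPM in ventral (adjusted p = 0.000271). The others were the class I heavy chain genes H2-K1 (11.54 ± 2.10 against 32.7 ± 13.4 CPM, adjusted p = 0.0193) and H2-T23 (4.61 ± 0.532 against 10.495 ± 1.35 CPM, adjusted p = 0.0471). B2m stood at 72.0, 69.0 and 78.7 CPM per 1000 CPM of intestinal markers in ventral libraries 1, 2 and 3, a nearly fixed ratio. Of 12 tested interferon-response genes, 0 were called higher in dorsal and 1 in ventral, the antiviral membrane protein gene Ifitm3 (0.336 ± 0.258 against 42.2 ± 27.3 CPM, adjusted p = 0.000907). Of 13 genes for ubiquitin and its first enzymes, 0 were called higher in dorsal and 2 in ventral, and the calls in ventral included the ubiquitin precursor gene Ubb (3649 ± 398 against 5244 ± 339 CPM, adjusted p = 0.0214). Of 7 tested CCT genes, 0 were called in either direction, and Cct7 and Cct8 had adjusted p-values of 0.257 and 0.347. At an unadjusted p under 0.05 (edgeR), the counts higher in dorsal and in ventral were 3 and 4 for the proteasome-associated genes, 0 and 3 for antigen processing, 0 and 4 for the interferon response, 1 and 2 for the ubiquitin genes and 0 and 0 for the CCT genes, beside 14.4% and 16.2% of all genes. With DESeq2, which called 24.2% of all genes in either direction, they were 3 and 3, 0 and 3, 0 and 3, 1 and 2, and 0 and 0 in that order.

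In the Smart-seq2 libraries of medial cortex, summed proteasome transcripts as a whole differed little between genotypes, and Psmb10 stood out as higher in libraries labelled null. The labels name no animal and the series calls these libraries single cells, so each genotype counts as 1 sample, no test was made, and each mean and SD is a description of the libraries at hand. TPM keeps no depth, so the depth behind these values is unknown. The 50 members summed to 13451 ± 2267 TPM (n = 13) in null and 12584 ± 2427 TPM (n = 12) in wild-type libraries. The 5 libraries with a few dominant genes held 8177 to 9307 TPM of member transcripts, below the 12621 to 15608 TPM of the other 20, and without them the genotypes stood at 14307 ± 929 (n = 11) and 13872 ± 768 TPM (n = 9). Relative to the summed CCT chaperonin, members stood at a ratio of 4.33 ± 0.558 in null and 3.65 ± 0.286 in wild-type libraries, and at 4.47 ± 0.470 and 3.71 ± 0.310 without the 5.

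**Figure D3:**
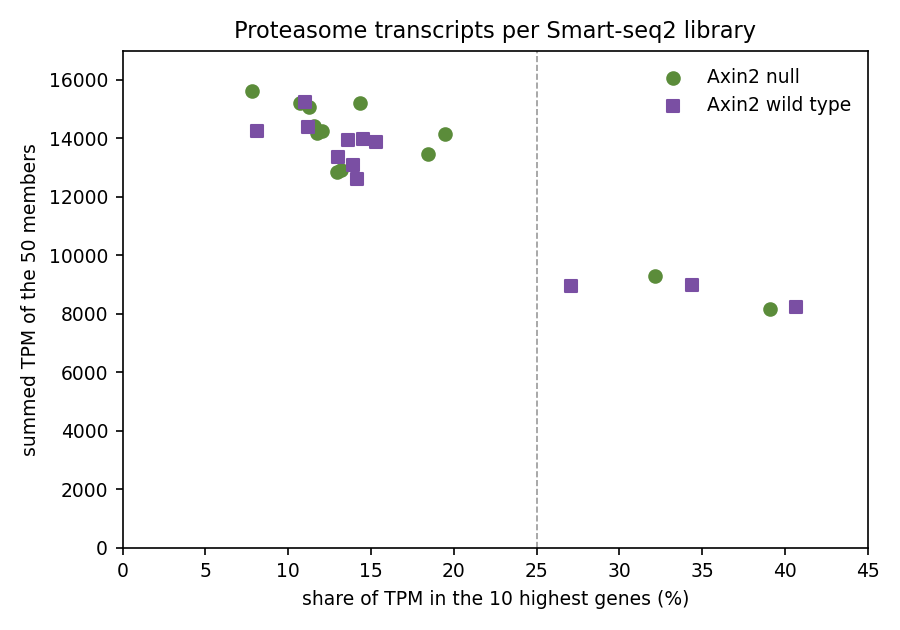
Summed TPM of the 50 members against the share of TPM taken by the 10 highest genes in each Smart-seq2 library, with circles for null and squares for wild type and the dashed line at 25%. The 5 libraries to the right of the line hold 8177 to 9307 TPM of member transcripts and come from both genotypes, while the other 20 hold 12621 to 15608 TPM.

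Differences between genotypes were computed as mean log2(TPM + 1) in null minus wild type for 47 members with a mean of at least 1 TPM, a scale that understates changes of low genes. The median difference of the members was 0.05, while that of all 13680 such genes was -0.22, and without the 5 libraries the medians were 0.01 and -0.29. Within 0.5 of 0 lay 38 of 47 members, against 60.9% of all genes. A difference of 1 or more toward null was found for 1 member, Psmb10 (1.39% of all genes), and toward wild type for 0 members (8.14% of all genes). Without the 5 libraries these were 1 (1.54%) and 1, Psma8 (12.2%). Psma8, named after its values were seen, was detected at 1 TPM or more in 1 of 13 null and 3 of 12 wild-type libraries, with a difference of -0.74 and of -1.01 without the 5. The 10 members on chromosome 11, which MADM-11 recombines, had a median difference of 0.03 and the 37 elsewhere 0.05, while 1044 genes of chromosome 11 had a median of -0.19.

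Psmb10 was detected in 13 of 13 null libraries (100%, exact 95% interval 75.3% to 100%) and in 8 of 12 wild-type libraries (66.7%, 34.9% to 90.1%). These intervals cover counting error over the libraries at hand, at unknown depth, and are no comparison of the genotypes. Its level ran from 13.2 over a median of 46.7 to 91.1 TPM in null and from 0 over 10.4 to 65.8 TPM in wild type. All 13 null libraries lay above the wild-type median, but the ranges overlapped, since 6 of 12 wild-type libraries lay above the lowest null one and 1 above the null median. The means were 49.1 ± 20.6 TPM (n = 13) and 17.5 ± 21.2 TPM (n = 12), and the difference on the log2(TPM + 1) scale was 2.69. Psmb10 was listed at 0 in 4 wild-type libraries, and 3 of these were among the 5 with a few dominant genes. The fourth held 865 TPM of macrophage markers, the most of any library, against 157 TPM or less in every null one. Without the 5 libraries the means were 45.9 ± 17.8 and 23.3 ± 21.6 TPM and the difference was 1.66. In the annotation Psmb10 overlaps the antisense gene Gm16156, and reads of the pair cannot be told apart.

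Psmb8 and Psmb9 were at or near 0 in most of these libraries. Psmb9 was detected in 0 of 13 null libraries, which allows a share of up to 24.7% of libraries with 1 TPM or more (exact 95% interval, counting error only), and in 3 of 12 wild-type libraries at 1.48, 2.84 and 5.82 TPM. Psmb8 was detected in 3 of 13 null libraries at 1.11, 1.43 and 4.18 TPM and in 2 of 12 wild-type libraries at 4.65 and 10.7 TPM. The wild-type library with 5.82 TPM of Psmb9 was the library with the most macrophage markers and listed Psmb8 and Psmb10 at 0. The part of macrophage RNA in these values was not tested. Psmb11 was detected in 1 null and 0 wild-type libraries.

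**Figure D4:**
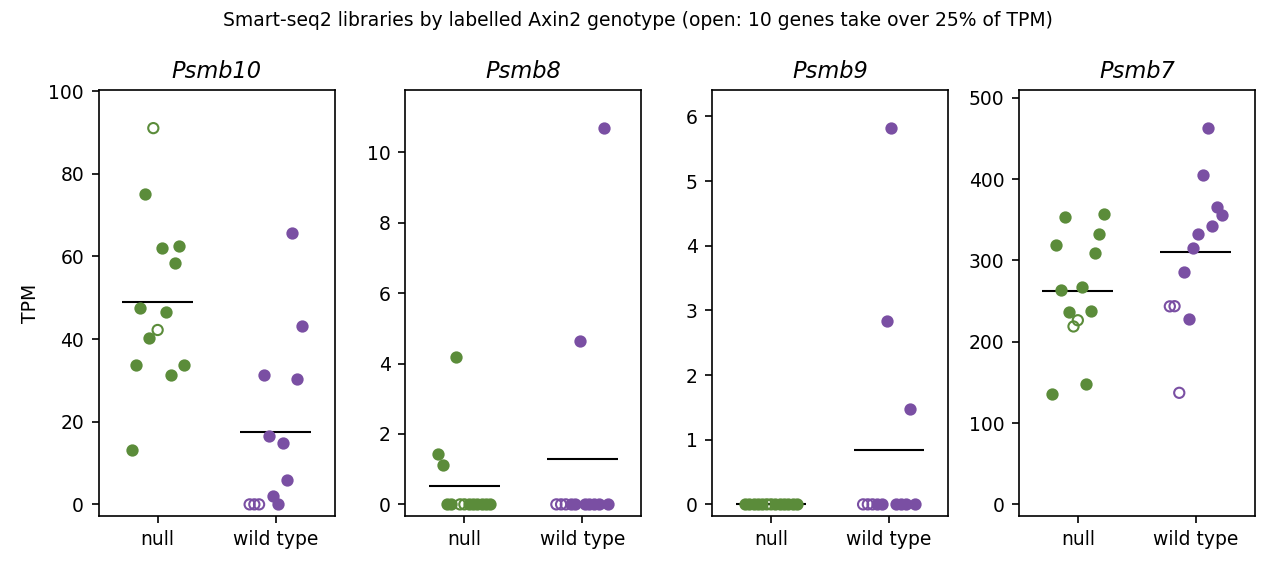
TPM of Psmb10, Psmb8, Psmb9 and Psmb7 in each Smart-seq2 library by labelled genotype, with bars at the mean and open points for the 5 libraries in which 10 genes take over 25% of the TPM; axes differ between panels. Psmb10 runs from 13.2 to 91.1 TPM in null and from 0 to 65.8 TPM in wild type, Psmb8 and Psmb9 are mostly at 0, and Psmb7 overlaps between genotypes.

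Set against the constitutive counterparts, the immunosubunits summed to 2.40% ± 1.35 of Psmb5, Psmb6 and Psmb7 in null (n = 13) and 0.987% ± 1.07 in wild-type libraries (n = 12), and most of the sum was Psmb10. The share ran from 0.616% to 6.17% in null and from 0% to 3.07% in wild type, so the genotypes overlapped. On the log2 scale with 1 TPM added, the difference was 2.08 and without the 5 libraries 0.93. The counterparts themselves did not all lie on 1 side. Psmb6, the gene with the most TPM of the 50 at a mean of 1269, was at 1399 ± 321 TPM in null and 1127 ± 152 TPM in wild type (difference 0.28). Psmb5 was at 536 ± 109 and 457 ± 103 TPM (0.24), and Psmb7, which Psmb10 replaces, at 262 ± 71.4 and 310 ± 88.0 TPM (-0.24). These 3 differences were 0.31, 0.17 and -0.39 without the 5 libraries, and the ranges of the genotypes overlapped for each gene.

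Of the 5 largest differences toward wild type among members present at 1 TPM or more in 50% or more of wild-type libraries, 3 were those of activators. Psme3 ran from 27.6 over a median of 62.0 to 134 TPM in null and from 50.4 over 99.0 to 182 TPM in wild type, with means of 64.2 ± 34.3 and 102 ± 42.8 TPM (difference -0.72, and -0.89 without the 5 libraries). Psme1 was at 105 ± 66.4 and 132 ± 43.5 TPM (-0.65, and -0.65 without the 5), and Psme4 at 8.70 ± 7.12 and 14.7 ± 14.7 TPM (-0.55, and -0.43 without the 5). The ranges overlapped for each of these genes. Psme2 lay on the other side at 0.18, so that the subunits of the PA28 alpha and beta activator differed in sign, and Psmf1 was at -0.33. The other members toward wild type were the cap subunit Psmd13 at 102 ± 62.0 and 134 ± 51.4 TPM (-0.65, and -0.997 without the 5) and the cap chaperone Psmd5 at 37.5 ± 17.4 and 43.7 ± 11.3 TPM (-0.37, and -0.19 without the 5). Psmd13 overlaps Sirt3 and Psme1 overlaps Emc9 on the opposite strand, which leaves their reads uncertain.

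Toward null, after Psmb10, came the cap chaperone Psmd9 (47.1 ± 20.9 against 36.3 ± 23.6 TPM, difference 0.67) and the core chaperone Psmg1 (122 ± 43.8 against 103 ± 71.5 TPM, 0.65). These 2 rested on the 5 libraries, without which they were at 0.09 and 0.18. Psmc3ip (84.3 ± 39.6 against 55.3 ± 24.2 TPM, 0.57) and the core chaperone Psmg3 (131 ± 42.2 against 94.9 ± 27.6 TPM, 0.44) were at 0.51 and 0.52 without them. By role, the median difference was 0.20 in the alpha ring, 0.17 in the structural beta ring, 0.00 for the ATPases and -0.09 for the non-ATPases, and without the 5 libraries -0.03, 0.15, -0.04 and -0.32. All 4 structural beta genes were on the null side, with Psmb3 at 922 ± 245 and 729 ± 134 TPM (0.31).

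**Figure D5:**
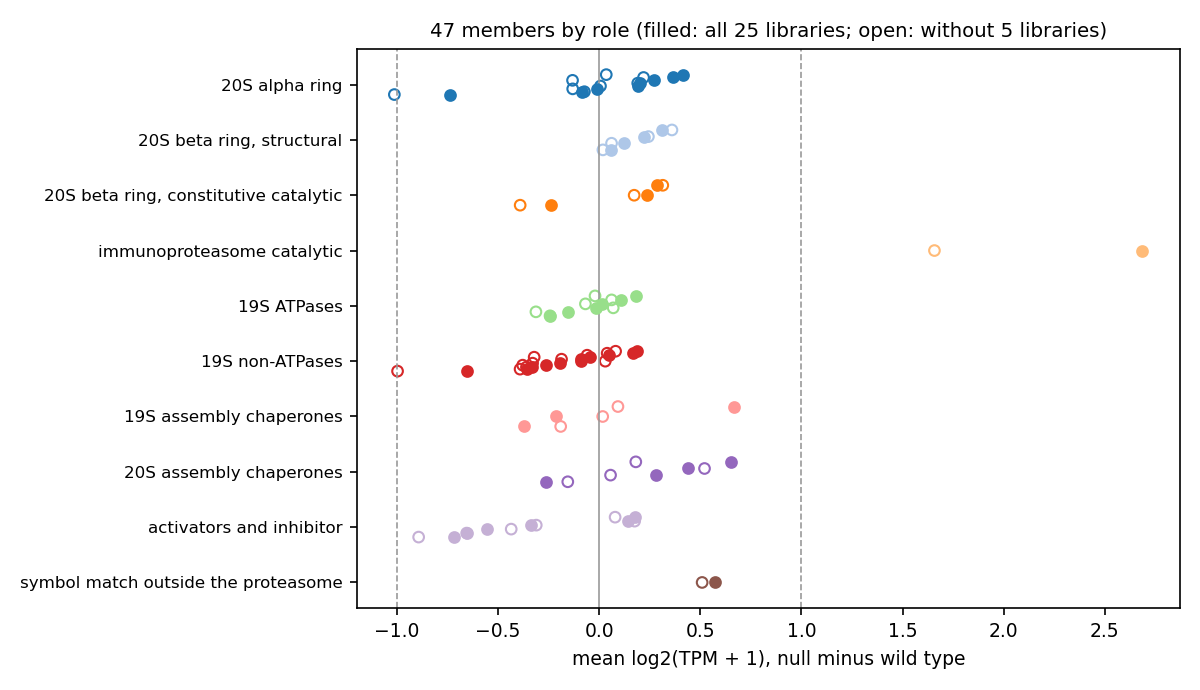
Difference in mean log2(TPM + 1), null minus wild type, for 47 members by role, filled for all 25 libraries and open without the 5 libraries with a few dominant genes; dashed lines mark 1 and -1. Psmb10 lies at 2.69 and 1.66, and 38 of 47 members lie within 0.5 of 0 over all libraries.

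Levels per length placed some genes of the beta ring near the top and Psmb8 and Psmb9 near the bottom in both assays. Psmb1 and Psmb7 ranked lower, at 24th and 28th in dorsal and 15th and 16th in the Smart-seq2 libraries. In bulk, Psmb5, Psmb2 and Psmb6 held the 3 highest values per kilobase in dorsal (332, 267 and 253 CPM per kilobase). In the Smart-seq2 libraries the highest means over 25 libraries were those of Psmb6 (1269 TPM), Psma7 (936 TPM), Psmb3 (830 TPM) and Psmb2 (732 TPM). Psmb10 ranked 45th of 50 in dorsal, 44th in ventral and 44th in the Smart-seq2 libraries (33.9 TPM). Psmb8 and Psmb9 ranked 49th and 50th in dorsal, 46th and 47th in ventral, and 48th and 49th in the Smart-seq2 libraries, where Psmb11 was last.

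The lists of related genes gave the following Smart-seq2 values. The Nfe2l1 axis had a median difference of -1.04 over 7 genes, with 4 lower in null by 1 or more (8.14% of all genes were). These were Nfe2l1 (8.41 ± 6.02 against 21.4 ± 14.2 TPM, -1.20), Nfe2l2 (6.01 ± 6.72 against 15.1 ± 10.475 TPM, -1.57), Ngly1, which deglycosylates Nfe2l1 (-1.19), and Mafk, a binding partner (-1.04). Without the 5 libraries the median was -0.98 and 3 of 7 were lower by 1 or more (12.2% of all genes were), with Nfe2l1 at -1.78, Nfe2l2 at -2.25, Mafk at -1.36 and Ngly1 at -0.98. Nfe2l2 was at 0 in 4 null and 0 wild-type libraries, Mafk in 7 and 4, and Nfe2l1 in 0 and 0. Genes detected at 1 TPM or more numbered 10193 ± 1463 in null and 10845 ± 1138 in wild-type libraries. Without the 5 they numbered 10422 ± 1402 and 11299 ± 797. The part of this in the differences of low genes was not tested. The median differences of the other lists were -0.13 for 18 proteasome-associated genes, 0.06 for 13 ubiquitin genes and -0.14 for 8 CCT genes, and without the 5 libraries -0.24, -0.23 and -0.25. For 10 genes of MHC class I antigen processing it was -0.58 and for 8 interferon-response genes -0.47 (-0.66 and -0.64 without the 5). The median of all genes also lay toward wild type, at -0.22 and, without the 5, at -0.29. H2-K1, a class I heavy chain, was at 15.9 ± 15.4 TPM in null and 39.6 ± 36.9 TPM in wild type (-1.82, and -1.52 without the 5).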

How the data were processed

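The members and all gene lists were chosen with earlier results of these data known. The table named for TPM held estimated counts as deposited by the authors: column totals run from 17604411 to 20838226, and 46.6% of values above 0 were whole within 0.0001. The deposited Smart-seq2 table holds TPM. STAR 2.7.0a, Trimmomatic and featureCounts, and the builds mm10 and GRCm38, are named per the submitters' processing notes without role or order. Symbols from GENCODE M21 matched 34651 of 34865 bulk and 55227 of 55487 Smart-seq2 identifiers. Columns of the Smart-seq2 table name a genotype by colour letter but no numbered sample.

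Bulk counts were rounded and fitted with edgeR 4.0.16 (TMM, quasi-likelihood, mean CPM of at least 1, Benjamini-Hochberg over 14701 genes, threshold 0.05) in R 4.3.3, a script tested on simulated data. Negative log2 fold changes are higher in ventral. DESeq2 1.42.0, relative log expression scaling, no filter, a replicate block and leaving out each library were alternatives. The chi-square statistic per gene between libraries of a region was at least 9, and no pair agreed within sampling noise. In the Smart-seq2 data a pseudocount of 1, detection at 1 TPM and a minimum mean of 1 TPM were used. Alternatives were a pseudocount of 0.1, no filter, medians and, chosen after seeing the data, leaving out 5 libraries in which 10 genes took over 25% of TPM. Exact intervals are Clopper-Pearson for shares and conditional binomial for count ratios, at 95%, and cover counting error only.

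The text names Axin2, all catalytic, immunoproteasome, thymoproteasome and activator members, members called in bulk, the extremes of each other role, and the 5 members per direction with the largest Smart-seq2 difference detected in at least 50% of libraries of the higher genotype. From other lists it names called genes, up to 4 per direction, or the 2 with the highest means. Others were named after their values were seen. A gene that this rule names is not reported here.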

Additional observations from a re-analysis of the deposited data

How the results depend on the processing

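No member was called higher in dorsal by edgeR except without ventral library 3 (leave-one-out range 0 to 1), while DESeq2 called 2. The count higher in ventral was 2 with all libraries and ranged from 0 to 6 when each library was left out. Replicate numbers are shared between regions, but deviations of same-numbered libraries correlated at only 0.062, 0.085 and 0.101 across genes and dorsal library 2 correlated best with ventral library 1 (0.137), so the numbers were not taken as a pairing. With the replicate block the count higher in ventral was 1, Psmb9, and Psmb8 had an adjusted p of 0.0666 (edgeR). Over all settings that tested them, adjusted p ranged from 0.00284 to 0.140 for Psmb8 and from 0.000317 to 0.0927 for Psmb9. In the Smart-seq2 libraries the count of members higher in wild type by 1 or more was 1 with a pseudocount of 0.1 and 1 without the 5 libraries with a few dominant genes. The cause of these shifts was not tested. No direction reversed for Psmb8 or Psmb9, the members called with all libraries. Psmb6 and Psma7, called only without dorsal library 3, had log2 fold changes of -0.37 to 0.06 and -0.52 to 0.04 over the alternatives. Low counts limit Psmb8 and Psmb9 in bulk, and the depth of the Smart-seq2 libraries is unknown.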
